A study of Mus musculus with 18 samples.

Results

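The respiratory chain is the set of enzymes in the inner mitochondrial membrane that passes electrons from NADH and succinate to oxygen and uses the resulting proton gradient to make ATP. The set described here held every row of the count files whose name starts with Ndufa, Ndufb, Ndufc, Ndufs, Ndufv, Uqcr, Cox4, Cox5, Cox6, Cox7, Cox8 or Atp5, or equals Sdha, Sdhb, Sdhc or Sdhd, and, as a second group, every row starting with mt-Nd, mt-Co, mt-Cytb or mt-Atp. This rule, which uses names and no measured value, found 103 members among 23093 rows. Of these, 90 were encoded in the nucleus, out of 22997 nuclear rows, and 13 in mitochondrial DNA, out of 22 mitochondrial rows. The nuclear members comprised 38 rows named for complex I, 4 for complex II, 8 for complex III, 16 for complex IV and 17 for complex V, plus 7 complex I assembly factors (Ndufaf1 to Ndufaf7).

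Complex I oxidises NADH, complex II oxidises succinate and belongs to the citric acid cycle as well, complex III passes electrons from ubiquinol to cytochrome c, complex IV reduces oxygen, and complex V is the ATP synthase. Complexes I, III, IV and V are mosaics of proteins made in the cytosol from nuclear genes and proteins made inside the organelle from mitochondrial genes, so both genomes must supply subunits. In the mouse embryo around gastrulation, cells leave the epiblast through the primitive streak to form mesoderm and endoderm, dividing rapidly as they do so.

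Single cells came from C57BL/6 WT mouse embryos at 2 stages, called E6.75 and E7.5 for the embryonic day, with no treatment. At E6.75 the extraembryonic part had been removed, embryos were dissociated one by one and cells were picked by hand. At E7.5 the cut lay below the chorion so that extraembryonic mesoderm stayed in, whole litters (1 or 2) were pooled, and cells were sorted by flow cytometry. Libraries were made by CEL-Seq2 or mCEL-Seq2, plate methods that count 1 tag near the 3′ end of each captured mRNA and remove PCR copies with a molecular barcode. Stage, dissection, cell collection and library series changed together, so that their parts in any stage difference cannot be told apart. E6.75 libraries carried the prefix 1 or 2 in their titles, whose meaning the labels do not give. The labels do not say which libraries came from the same embryo or litter, and p-values measure the spread between libraries.

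Cells with at least 2000 nuclear transcripts in the 96 used barcodes were kept, 543 of 576 at E6.75 and 429 of 1152 at E7.5. One E7.5 library had no kept cell, which left 6 and 11 libraries with 85 to 96 and 15 to 71 kept cells, holding 2933395 to 5493791 and 518343 to 2627269 nuclear transcripts. Libraries reused the same well barcodes, and every barcode of a kept cell recurred in a kept cell of another library. Libraries of a stage differed beyond counting noise, the closest pair with a chi-square of 2.11 per degree of freedom. Levels are given as CPM, counts scaled to 1000000 nuclear transcripts. Epiblast markers summed to 1870 to 2299 CPM in the E6.75 libraries and 359 to 955 CPM in the E7.5 libraries, mesoderm markers to 54.5 to 277 and 213 to 947, and visceral endoderm markers to 180 to 799 and 13.3 to 221. ERCC spike-ins made up 2.05% and 2.16% of the 2 prefix 1 libraries and at most 0.000251% of each other library.

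The nuclear genes for respiratory chain subunits lie on many chromosomes, and their promoters are known for binding sites of the nuclear respiratory factor NRF1, of ETS family factors such as GABPA, of oestrogen-related receptors (ERR) and of YY1. RefSeq promoter windows (GRCm38.p6, 250 bases before to 50 after each start) were found for 75 of the 90 nuclear members, 81 windows in all. The NRF1 motif core GCGCANGCG, searched on both strands like the others, was present in 28.4% of the 81 windows and in 6.25% of all 32851 windows. The ETS motif CCGGAAG was present in 21% against 8.86%, the YY1 motif core AAGATGGCG in 11.1% against 1.4%, and the ERR motif TCAAGGTCA in 2.47% against 0.423%. At least 1 motif was present in 41 of the 81 windows, 9 windows held 2 or more of them, and no matches of different motifs shared bases. The 250 bases before the start of 4 members are shown with NRF1 matches in capitals, to set members that rose between the stages beside 1 that was not called. Ndufb4, an accessory subunit of complex I (chr16:37654369-37654618, minus strand), and Sdha, the flavoprotein of complex II (chr13:74350241-74350490, minus strand), rose and hold matches. Ndufa4 (chr6:11907451-11907700, minus strand) had the largest rise and holds none. Cox6a1 of complex IV (chr5:115348959-115349208, minus strand) was not called and holds matches.
Ndufb4: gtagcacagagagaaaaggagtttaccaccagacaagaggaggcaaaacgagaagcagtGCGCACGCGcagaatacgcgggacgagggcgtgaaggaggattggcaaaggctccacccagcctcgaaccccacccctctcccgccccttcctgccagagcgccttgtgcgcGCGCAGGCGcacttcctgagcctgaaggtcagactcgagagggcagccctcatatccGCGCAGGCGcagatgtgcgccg
Sdha: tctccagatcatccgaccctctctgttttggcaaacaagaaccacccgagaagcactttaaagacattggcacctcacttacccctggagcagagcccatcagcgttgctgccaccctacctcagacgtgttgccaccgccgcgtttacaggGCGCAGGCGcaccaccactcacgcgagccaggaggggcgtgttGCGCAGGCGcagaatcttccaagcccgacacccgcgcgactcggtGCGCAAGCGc
Ndufa4: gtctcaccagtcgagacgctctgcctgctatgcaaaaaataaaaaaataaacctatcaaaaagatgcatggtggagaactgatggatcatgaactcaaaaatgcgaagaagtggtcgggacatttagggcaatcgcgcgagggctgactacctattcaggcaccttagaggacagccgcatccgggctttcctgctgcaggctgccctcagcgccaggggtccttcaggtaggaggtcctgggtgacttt
Cox6a1: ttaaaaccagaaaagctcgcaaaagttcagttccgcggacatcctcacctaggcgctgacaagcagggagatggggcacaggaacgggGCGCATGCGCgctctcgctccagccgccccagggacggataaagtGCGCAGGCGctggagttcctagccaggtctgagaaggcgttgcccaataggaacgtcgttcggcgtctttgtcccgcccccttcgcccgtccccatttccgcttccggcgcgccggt

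By the stage test below, 23.3% of the 30 windows of members that rose held the NRF1 motif, as did 37.2% of the 43 windows of members that were not called and 0 of the 5 windows of members that fell. The YY1 motif was in 5 of the 30, 2 of the 43 and 2 of the 5 windows. The 2 matched windows of members that fell belong to the same gene, Atp5sl. The letters of a motif are a description of the window. A match is not evidence of binding, which was not measured.

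Tag counting gives 1 count per captured molecule whatever the transcript's length, so levels of different members can be set side by side, apart from differences in how well each 3′ end was captured and mapped. Mean levels over the 17 libraries spanned a wide range. The highest nuclear member was Atp5b, the catalytic β subunit of the ATP synthase, at 1474 CPM or 8.22% of all nuclear member transcripts. Next came Atp5a1, the α subunit of the same enzyme (1122 CPM), Cox7c, a small subunit of complex IV (956 CPM), and Atp5g3, Atp5g2, Cox8a and Atp5c1. These 7 rows above 500 CPM gave 34.7% of the nuclear member transcripts, 76 rows lay between 10 and 500 CPM, and 7 lay under 10 CPM. The highest rows of the other complexes were Ndufab1 for complex I (321 CPM), the mitochondrial acyl carrier protein, Uqcrq for complex III (267 CPM), a small accessory subunit, and Sdha for complex II (176 CPM).

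The mitochondrial members stood higher, from 14897 CPM of nuclear transcripts for mt-Co1, the catalytic core of complex IV, down to 1195 CPM for mt-Atp8 and 103 CPM for mt-Nd6, a complex I subunit and the sole member transcribed from the light strand. The other 11 exceeded every nuclear member. mt-Atp8 shares a transcript with mt-Atp6 and mt-Nd4l overlaps mt-Nd4 on the same strand, so levels within these pairs depend on how tags were assigned.

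Tissue-restricted isoforms were low. Cox4i2 had 0 to 1.61 CPM over all libraries, Cox8c 0 to 0.546, Cox7b2 0 to 3.22 and Cox7a1, known from heart and skeletal muscle, 0 to 6.34. Cox6b2, known from testis, had 1.36 to 14 CPM and Ndufa4l2, a hypoxia-induced relative of Ndufa4, 1.55 to 15.8. Their ubiquitous partners Cox4i1, Cox8a, Cox7b, Cox7a2, Cox6b1 and Ndufa4 ran from 106 to 703 CPM. These 6 low rows were too low for the test, so 84 of the 90 nuclear members and all 13 mitochondrial members were tested between the stages.

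In every E7.5 library the nuclear members took a larger share of the transcripts than in any E6.75 library. They made up 1.57% to 1.73% of nuclear transcripts at E6.75 (mean 1.65% ± 0.066, SD, n = 6) and 1.77% to 2.03% at E7.5 (1.87% ± 0.0812, SD, n = 11), with medians of 1.67% and 1.86%. The ranges did not overlap. The mitochondrial members overlapped between the stages. They stood at 8.46 to 13.4 transcripts per 100 nuclear transcripts in the E6.75 libraries (mean 10.2 ± 1.75, SD, n = 6) and at 7.29 to 11.5 in the E7.5 libraries (8.99 ± 1.3, SD, n = 11). Within the stages the 2 prefix 1 libraries (10.6 and 13.4) exceeded the 4 of prefix 2 (8.46 to 10), and E7.5 libraries 10, 11 and 12 (9.73 to 11.5) exceeded the other 8 (7.29 to 8.72). The labels do not set libraries 10, 11 and 12 apart, and they were grouped after the data were seen. The ratio of mitochondrial to nuclear member transcripts was 4.88 to 8.49 in E6.75 libraries and 3.97 to 6.43 in E7.5 libraries.

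**Figure D1:**
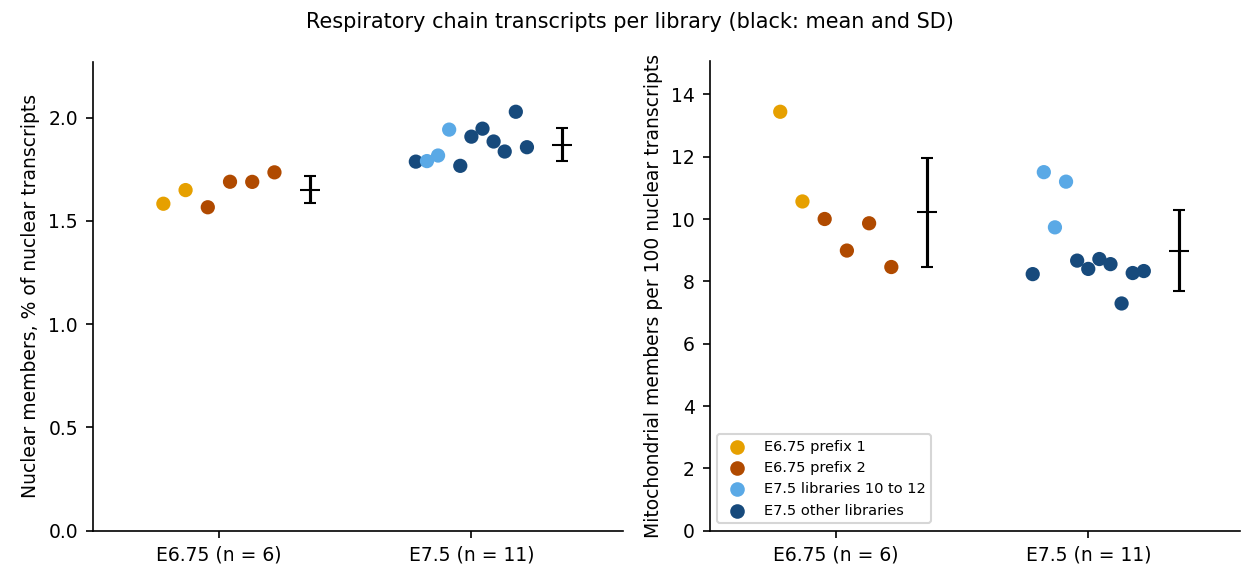
Share of nuclear members in nuclear transcripts (left, percent) and mitochondrial members per 100 nuclear transcripts (right) in each of the 17 libraries, coloured by library group, with mean and SD in black. The nuclear shares do not overlap between stages (highest 1.73% at E6.75, lowest 1.77% at E7.5), while the mitochondrial values overlap and are highest in the prefix 1 and E7.5 10 to 12 libraries.

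By complex, the nuclear share of complex I was 0.373% to 0.453% in E6.75 and 0.454% to 0.55% in E7.5 libraries, that of complex II 0.0317% to 0.0472% and 0.0497% to 0.0584%, and that of complex V 0.636% to 0.687% and 0.693% to 0.792%, each without overlap. The nuclear shares of complex III (0.12% to 0.144% and 0.139% to 0.171%) and complex IV (0.333% to 0.401% and 0.347% to 0.459%) overlapped between the stages.

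Each row was then tested between the stages on counts summed per library, with edgeR's quasi-likelihood test and Benjamini-Hochberg adjustment over all 9999 rows tested. At an adjusted p under 0.05, 38.7% of all tested rows were called, 19.9% higher at E7.5 and 18.8% lower, with a median log2 fold change of 0.03. Of the 84 nuclear members, 35 rose, 5 fell and 44 were not called, and their median was 0.23. Non-overlapping libraries were counted too: 9 of the 84 lay higher in every E7.5 library than in any E6.75 library, against 4% of all rows, and 0 lay lower, against 4.3%. The 13 mitochondrial members gave 0 rises and 6 falls with a median of -0.19.

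**Figure D2:**
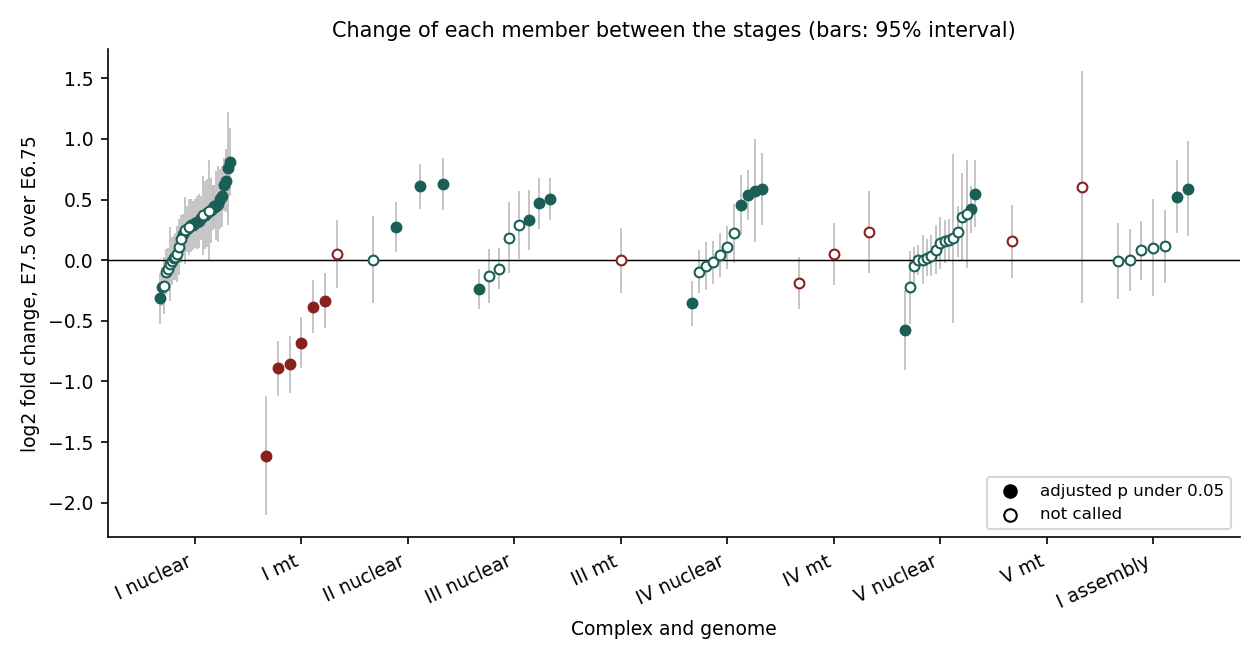
log2 fold change of each tested member, E7.5 over E6.75, grouped by complex and genome, with bars for the 95% interval; filled points passed an adjusted p of 0.05. Nuclear complex I points lie mostly above 0 (21 of 37 rose), while 6 of the 7 mitochondrial complex I points lie below it.

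Complex I held 21 of the 35 nuclear rises. Of its 37 tested nuclear rows 21 rose and 2 fell, with a median of 0.30. Among the Ndufb rows, accessory subunits of the membrane arm, 8 of 10 rose and 0 fell. Among the Ndufs rows, which hold most iron-sulphur subunits, 5 of 8 rose and 1 fell, all 3 Ndufv rows rose, 5 of 14 Ndufa rows rose and 1 fell, and neither of the 2 Ndufc rows was called.

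Ndufa4 had the largest rise of the set. It is named for complex I but its protein is found with complex IV, and the rule placed it by name. Its level was 109 to 136 CPM at E6.75 (median 113) and 136 to 285 CPM at E7.5 (median 214). All E7.5 libraries lay above all E6.75 libraries, and the change was 0.81 ± 0.14 (log2, SE; adjusted p by edgeR 7.48e-05). Ndufb11, an X-linked membrane arm subunit, was at 54.8 to 89.2 CPM (median 71.7) and 93.4 to 128 CPM (median 117), again without overlap, a log2 fold change of 0.62 ± 0.10 (SE, adjusted p = 7.16e-05). Ndufb6 and Ndufs4, an accessory subunit whose loss in mice gives a Leigh-like disease, separated the stages in the same way, with log2 fold changes of 0.44 and 0.43.

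Ndufb2 and Ndufa9 had large changes with overlapping libraries. Ndufb2 was at 16.2 to 36.6 CPM (median 33.6) at E6.75 and 26.5 to 76.2 CPM (median 59.3) at E7.5, a log2 fold change of 0.76 ± 0.22 (SE, adjusted p = 0.0104). Without E7.5 libraries 10, 11 and 12 its value was 0.58 with an adjusted p of 0.0505. Ndufa9, near the ubiquinone site, was at 55.5 to 71.7 CPM (median 61) and 53.4 to 131 CPM (median 104), a log2 fold change of 0.66 ± 0.13 (SE, adjusted p = 0.000327).

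The 2 complex I rows that fell were Ndufs1, which encodes the largest core subunit and carries iron-sulphur clusters, and Ndufab1. Ndufs1 was at 116 to 187 CPM (median 133) and 91.3 to 138 CPM (median 117), with a log2 fold change of -0.31 ± 0.10 (SE, adjusted p = 0.0184). Its highest value was in the prefix 1 library 1_10, and without that library the change was -0.20 with an adjusted p of 0.0894. Ndufab1 was at 315 to 403 CPM (median 339) and 275 to 346 CPM (median 306), a log2 fold change of -0.22 ± 0.08 (SE, adjusted p = 0.03). Leaving out any of the libraries 1_11, 2_12, 2_9 or E7.5 library 1 took Ndufab1 past the threshold, with adjusted p from 0.051 to 0.0792. Of the 7 assembly factors, which help build complex I and are not part of it, 2 rose: Ndufaf4 from a median of 92.7 to 133 CPM (log2 fold change 0.52) and Ndufaf5 from 14.7 to 25.2 CPM (0.59). The other 5 had log2 fold changes from -0.01 to 0.12.

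Complex II has no mitochondrially encoded subunit, and 3 of its 4 genes rose. Sdhb, the iron-sulphur subunit, was at 63.7 to 90.9 CPM (median 79.3) and 108 to 153 CPM (median 121), with a log2 fold change of 0.61 ± 0.09 (SE, adjusted p = 1.89e-05). Sdhc, a membrane anchor, was at 39.3 to 64.1 CPM (median 57) and 67.5 to 101 CPM (median 84.8), with a change of 0.63 ± 0.10 (SE, adjusted p = 6.32e-05). Both separated the stages without overlap. Sdha rose by 0.28 ± 0.10 (SE, adjusted p = 0.0331), from a median of 150 to 196 CPM with overlap, and leaving out 1 library took it past the threshold for 10 of the 17 libraries. Sdhd, the other anchor, had medians of 148 and 137 CPM and a change of 0.01 ± 0.17 (SE, adjusted p = 0.985; 95% interval from -0.35 to 0.36). Its E6.75 values split by series: 61.5 and 104 CPM in the prefix 1 libraries and 143 to 167 CPM in those of prefix 2.

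In complex III, 3 of 8 nuclear genes rose and 1 fell. Uqcrb, which binds ubiquinone, was at 132 to 170 CPM (median 148) and 188 to 264 CPM (median 226), and Uqcrc2, a core protein, at 75.4 to 136 CPM (median 116) and 143 to 191 CPM (median 160). Neither overlapped between the stages, and the log2 fold changes were 0.51 ± 0.08 and 0.47 ± 0.10 (SE, adjusted p = 7.3e-05 and 0.000961). Uqcr10 rose by 0.33. The Rieske iron-sulphur protein Uqcrfs1 was at 217 to 304 CPM (median 263) and 189 to 273 CPM (median 230), with a change of -0.24 ± 0.08 (SE, adjusted p = 0.0222). That call was lost without library 1_10 (adjusted p = 0.0588) or 2_12 (0.0727), and with every cell thinned to 2000 transcripts the value was 0.22 with an adjusted p of 0.391. Uqcrc1, Uqcrq, Uqcrh and Uqcr11 were not called, with values from -0.13 to 0.29.

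In complex IV, 4 of 11 tested nuclear genes rose and 1 fell. Cox6b1, which lies at the interface of the dimer, was at 154 to 224 CPM (median 187) and 231 to 358 CPM (median 275), without overlap (log2 fold change 0.54 ± 0.10, SE, adjusted p = 0.000223). Cox7a2 rose by 0.59, from a median of 161 to 230 CPM, Cox5b by 0.57, from 84.7 to 132 CPM, and Cox4i1, the ubiquitous form of subunit 4, by 0.46, from 262 to 350 CPM, each with overlapping libraries. Cox7c was at 921 to 1199 CPM (median 1094) and 726 to 1087 CPM (median 894), a log2 fold change of -0.36 ± 0.09 (SE, adjusted p = 0.00367). Among isoform relatives, Cox7a2l, known for its role in supercomplexes, had a change of -0.05 where Cox7a2 rose, and Cox6a1, Cox7b and Cox8a had 0.04, 0.22 and -0.09, none called.

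The ATP synthase had the highest levels and few calls. Of 17 tested rows 2 rose and 1 fell, and the median change was 0.14. Atp5b was at 1058 to 1452 CPM (median 1388) and 1197 to 1826 CPM (median 1555), with a log2 fold change of 0.16 ± 0.09 (SE, adjusted p = 0.151). Atp5a1 had medians of 1063 and 1088 CPM and a change of 0.04. The 3 genes Atp5g1, Atp5g2 and Atp5g3, which encode the same mature subunit c of the rotor, had changes of 0.01, 0.17 and -0.05 with none called, and 95% intervals that ran no further than -0.20 to 0.34. Atp5e, the small ε subunit, rose by 0.55 from a median of 75.9 to 123 CPM, and Atp5j, coupling factor 6 of the stalk, by 0.42 from 191 to 264 CPM. The fall was of Atp5sl, matched by the name rule; RefSeq calls it Dmac2, a complex I assembly factor, and its level was 71.6 to 118 CPM (median 90.9) and 33.8 to 89.4 CPM (median 69.8), a change of -0.57 ± 0.16 (SE, adjusted p = 0.00674).

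Levels and changes of the nuclear members can be set side by side. The 42 members above the set's median level (142 to 1474 CPM) held 11 rises and 3 falls with a median of 0.06, and the 42 below it (5.55 to 139 CPM) 24 rises and 2 falls with a median of 0.35. Over all nuclear rows in the same 2 ranges, 14.6% rose and 37.8% fell in the upper and 20.4% rose and 15.9% fell in the lower. Spearman's rho between level and change over the 84 members, which share libraries and the same total, was -0.34.

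**Figure D3:**
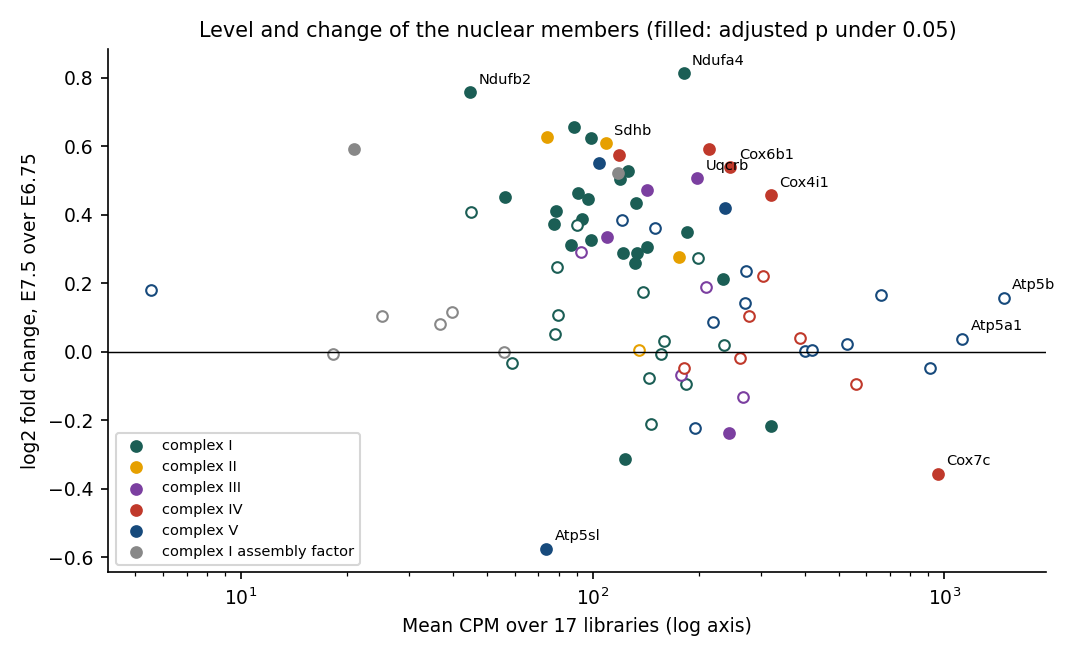
Mean level over the 17 libraries (log axis, CPM) against the log2 fold change between the stages for the 84 tested nuclear members, coloured by complex, filled where adjusted p was under 0.05. The rows above 500 CPM lie between -0.36 (Cox7c) and 0.17 (Atp5g2), and Ndufa4 has the highest value, 0.81.

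Among the mitochondrial members all 6 calls lay in complex I; whether complexes differ was not tested. Of its 7 mitochondrial rows 6 fell, with a median of -0.68, and of the other 6 rows (mt-Cytb, mt-Co1, mt-Co2, mt-Co3, mt-Atp6 and mt-Atp8) 0 were called. At an unadjusted p under 0.05 the count was 6 of the 13 rows, and DESeq2 called 6.

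mt-Nd5, the largest of the proton-pumping subunits, was at 9917 to 16538 CPM (median 12051) at E6.75 and 5658 to 9053 CPM (median 6771) at E7.5, and changed by -0.86 ± 0.11 (log2, SE; adjusted p by edgeR 5.4e-06). mt-Nd4l was at 2057 to 3258 CPM (median 2509) and 1116 to 1865 CPM (median 1497), with -0.89 ± 0.11 (SE, adjusted p = 2.47e-06), and mt-Nd2 at 10964 to 18186 CPM (median 13130) and 6714 to 9762 CPM (median 9097), with -0.68 ± 0.10 (SE, adjusted p = 2.18e-05). In these 3 rows every E7.5 library lay below every E6.75 library, where 4.3% of all rows did so. Their calls held with the prefix 2 libraries alone, at -0.70, -0.80 and -0.53. mt-Nd4l overlaps mt-Nd4 on the same strand (mt-Nd4l at M:9877-10173, mt-Nd4 at M:10167-11544). Tags of these 2 rows could be mixed, so their falls may not be independent.

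mt-Nd6 had the largest fold change, -1.61 ± 0.24 (SE, adjusted p = 1.77e-05), at 78 to 273 CPM (median 201) and 37 to 89.8 CPM (median 57.1). Its E6.75 values fell apart by series: the prefix 1 libraries had 78 and 83.9 CPM, inside the E7.5 range, and the prefix 2 libraries 189 to 273 CPM. mt-Nd5 and mt-Nd6 overlap on opposite strands at their 3′ ends (mt-Nd5 at M:11742-13565, mt-Nd6 at M:13552-14070, GRCm38), and whether counting used strand is not given, so their tags could be mixed. mt-Nd4 and mt-Nd1 had smaller falls of -0.38 ± 0.10 and -0.33 ± 0.11 (SE, adjusted p = 0.00623 and 0.022), with overlapping libraries. With the prefix 2 libraries alone they were -0.19 (adjusted p = 0.107) and -0.20 (adjusted p = 0.202), and without library 1_10 mt-Nd1 was at -0.24 (adjusted p = 0.0828).

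mt-Nd3 had medians of 1773 and 1923 CPM and a log2 fold change of 0.05 ± 0.14 (SE, adjusted p = 0.806). The complex IV rows mt-Co1, mt-Co2 and mt-Co3 had changes of -0.19, 0.05 and 0.23, and mt-Cytb of complex III had medians of 9516 and 9512 CPM with a 95% interval from -0.27 to 0.26. mt-Atp6, the proton channel subunit of the ATP synthase, had 0.16. mt-Atp8, which shares 1 transcript with mt-Atp6 and overlaps it, ranged from 337 to 1534 CPM at E6.75 and 274 to 3032 CPM at E7.5, with 0.60 ± 0.46 (SE, adjusted p = 0.317). Its low E6.75 values were those of prefix 1 (337 and 481 CPM) and its 3 highest E7.5 values those of libraries 10, 11 and 12 (2292 to 3032 CPM), and without the latter the change was -0.11.

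**Figure D4:**
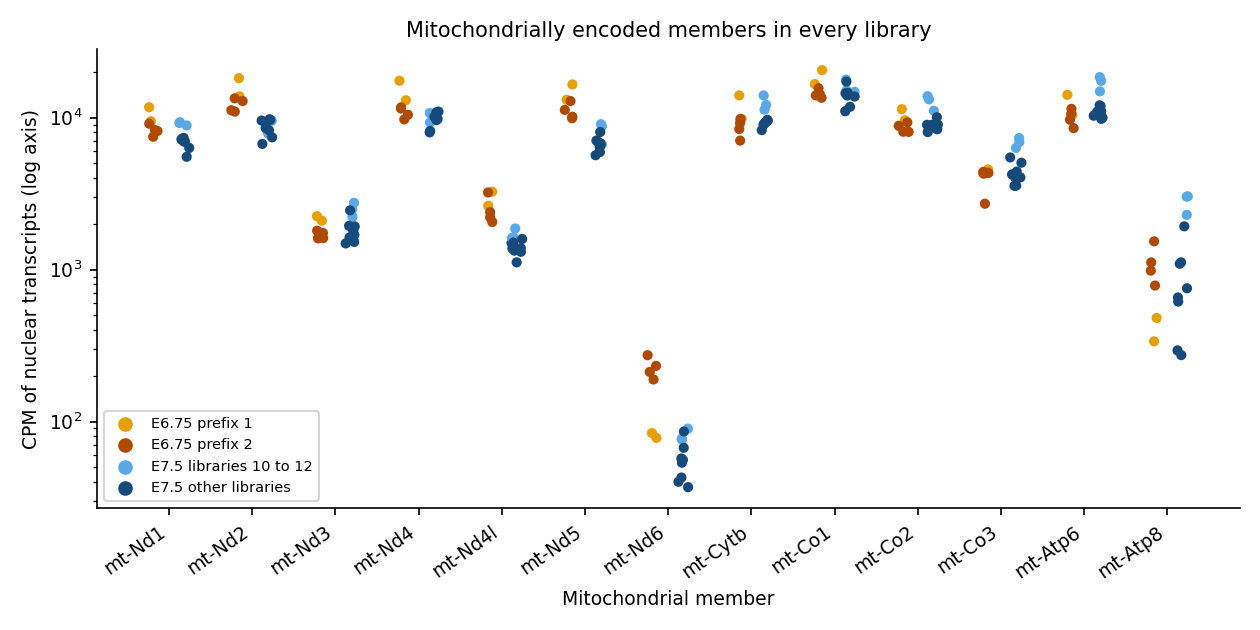
Level of each mitochondrial member (log axis, CPM of nuclear transcripts) in every library, E6.75 left and E7.5 right in each pair, coloured by library group. mt-Nd2, mt-Nd4l and mt-Nd5 separate the stages, mt-Nd6 is low in the prefix 1 libraries (78 and 83.9 CPM) as at E7.5, and libraries 10 to 12 are high in mt-Atp8 (2292 CPM and above).

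Levels of mitochondrial members differed between groups of libraries within each stage. E7.5 libraries 10, 11 and 12 are not marked as a series by the labels. They were grouped after the data were seen, so their counts below describe the split and do not test it. Prefix 1 lay above prefix 2 without overlap in 8 of the 13 mitochondrial and 4 of the 84 nuclear members, against 12.9% of all rows, and below it in 2 and 13, against 14.8%. E7.5 libraries 10, 11 and 12 lay above the other 8 in 7 of the 13 mitochondrial and 0 of the nuclear members, against 1.88% of all rows, and below them in 0 and 1, against 1.56%. The part of these library groups in the stage difference was not tested beyond these values and the settings without either group. The median coefficient of variation of a tested nuclear member between libraries was 13.7% at E6.75 and 13.5% at E7.5.

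Related gene lists were tested in the same fit, where 19.9% of all rows were called higher and 18.8% lower. In glycolysis 8 of 21 genes rose and 4 fell (median 0.18), led by the glucose transporters Slc2a3 (1.04) and Slc2a1 (0.90) and by enolase Eno1 (0.72). In the citric acid cycle, complex II aside, 3 of 17 rose and 5 fell (median 0.03), with citrate synthase Cs at -0.49 and the NADP-dependent Idh2 at 0.57. Among regulators of mitochondrial biogenesis 2 of 14 rose and 4 fell (median -0.18): the mitochondrial DNA polymerase Polg was at 1.19 and Lrpprc, which stabilises mitochondrial mRNAs, at -0.58. Among electron carriers and complex IV assembly factors 4 of 16 rose and 3 fell, led by the ubiquinone enzyme Coq2 (0.73).

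Of 76 mitochondrial ribosome genes 13 rose and 11 fell (median 0.05), shares no higher than the 19.9% and 18.8% of all rows. Of 94 rows named for the cytosolic ribosome, pseudogenes included, 47 rose and 3 fell (median 0.34). Immediate early genes, known to respond to cell handling, moved with the stage: 9 of 12 fell and 0 rose (median -1.88), and their summed level was 927 to 1495 CPM in E6.75 and 513 to 721 CPM in E7.5 libraries. All 7 tested visceral endoderm markers fell as well. Leaving out the 68 and 8 cells marked as visceral endoderm or extraembryonic ectoderm gave 37 rises and 5 falls of nuclear members; the part of cell handling was not tested.

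The second question was whether cells that express a gene of a germ layer differ in respiratory chain transcripts from the other cells of their stage. Cells with at least 1 transcript of T (primitive streak and nascent mesoderm), Mesp1 (early mesoderm), Foxa2 (anterior streak and endoderm) or Sox2 (epiblast and neural plate) were summed per library and set against the cells of the same library without one, with the library as a block. In each of these 8 comparisons at most 1 of the 96 tested members, 83 nuclear and 13 mitochondrial, was called.

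Cells with T numbered 156 of 543 at E6.75 and 283 of 429 at E7.5, in all 6 and 11 libraries. They were deeper than the cells without T, with median transcript numbers of 54723 against 30409 at E6.75 and 34146 against 22284 at E7.5. Among cells of at least 10000 transcripts 1 member was called by T at either stage. At E6.75 2.23% of all 8306 rows were called (1.31% higher, 0.915% lower), and of the members Ndufaf6, a complex I assembly factor: 37.4 to 67.8 CPM in cells with T (median 44.8) and 26.2 to 41.3 CPM in cells without (median 30.1), higher with T in 6 of 6 libraries, with a difference of 0.61 ± 0.14 (log2, SE; adjusted p by edgeR 0.0155). The call was lost without library 1_11 (adjusted p = 0.0672) or 2_14 (0.223). At E7.5 2.78% of rows were called (1.79% higher, 0.987% lower), and of the members Ndufaf4, 75.1 to 215 CPM with T (median 147) and 0 to 114 CPM without (median 101), higher in 10 of 11 libraries, at 0.68 ± 0.11 (SE, adjusted p = 9.04e-05). Levels without T rest on few transcripts in some E7.5 libraries: 3 cells with a median of 4035 transcripts in library 9, 11 with 4698 in library 10 and 16 with 5720 in library 12. At the other stage Ndufaf6 had 0.15 and Ndufaf4 0.23, neither called, and the change of either between the stages was not called (adjusted p = 0.681 and 0.268).

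The nuclear share of cells with T was 1.55% to 1.74% against 1.56% to 1.76% in cells without at E6.75, and 1.75% to 2.07% against 1.76% to 2% at E7.5. It was higher with T in 2 of 6 and 6 of 11 libraries. The mitochondrial members per 100 nuclear transcripts were 7.58 to 15 against 8.12 to 13 at E6.75, higher with T in 5 of 6 libraries, and 6.93 to 10.9 against 8.17 to 13.5 at E7.5, higher in 3 of 11.

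Mesp1 was found in 50 cells of 3 E6.75 libraries, all of prefix 2, and in 137 cells of 11 E7.5 libraries. Median transcript numbers with and without Mesp1 were 60689 and 36881 at E6.75 and 39597 and 26201 at E7.5. The E6.75 median without Mesp1 includes the libraries that did not enter the test. In the 3 tested ones the medians with and without were 62491 and 54053 (2_13), 48801 and 54752 (2_14) and 72651 and 19886 (2_9). At E6.75, where 1.25% of all 8235 rows were called (0.899% higher, 0.352% lower), 0 of the 96 tested members were called, 1 had an unadjusted p under 0.05 and DESeq2 called 0. At E7.5 7.95% of rows were called (3.52% higher, 4.43% lower), and of the members mt-Nd3: 1401 to 2420 CPM with Mesp1 (median 1834) and 1584 to 2958 CPM without (median 1901), lower with Mesp1 in 10 of 11 libraries, at -0.19 ± 0.05 (log2, SE; adjusted p by edgeR 0.00819). Among cells of at least 10000 transcripts its value was -0.11 (adjusted p = 0.166). Without E7.5 library 9 the count was 7, and without libraries 2, 11 or 12 it was 2. Mitochondrial members at E7.5 stood at 6.8 to 11 per 100 nuclear transcripts with Mesp1 and 7.37 to 12 without. They were higher with Mesp1 in 2 of 11 libraries, and the nuclear share was higher in 5 of 11. In the same cells 7 of 20 glycolysis genes fell and 0 rose, among them Slc2a3 (-1.96), Slc2a1 (-1.15) and the pyruvate dehydrogenase kinase Pdk1 (-1.04).

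Foxa2 was found in 132 cells at E6.75, in all 6 libraries, and in 61 at E7.5, of which 59 cells in 9 libraries entered the test. Median transcript numbers with and without Foxa2 were 45207 and 37750 at E6.75 and 35584 and 29944 at E7.5. No member was called at either stage, where 2.75% (2.48% higher, 0.275% lower) and 4.51% (2.6% higher, 1.9% lower) of all 8723 rows were, and DESeq2 called 0 at both. With no filter on low counts edgeR called 13 members at E6.75 and 8 at E7.5. At an unadjusted p under 0.05 edgeR counted 3 and 8 nuclear members and 7 and 2 mitochondrial ones. At E6.75 all 13 mitochondrial members had values below 0, from -0.31 for mt-Atp8 (adjusted p = 0.159) to -0.00 for mt-Nd6. These rows share libraries and the same total, so they are not 13 separate observations. Mitochondrial members stood at 7.48 to 14 per 100 nuclear transcripts with Foxa2 and 8.16 to 13.4 without, higher with Foxa2 in 2 of 6 libraries. At E7.5 they stood at 6.76 to 11.3 and 7.14 to 11.1, higher with Foxa2 in 6 of 9 libraries. Without E6.75 library 2_13 there were 4 calls, mt-Nd1, mt-Co1, mt-Co2 and mt-Atp8. All 8 tested visceral endoderm markers rose in these cells (median 3.16), and 39 of the 132 cells were marked as visceral endoderm against 17 of the other 411; without marked cells the count of called members was 0. The lactate and pyruvate transporter Slc16a1 rose in cells with Foxa2 at both stages, by 1.60 and 2.16, and the glucose transporter Slc2a3 by 0.98 and 0.97. No other gene of the glycolysis list, and so none of its enzymes, was called in these cells.

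Sox2 was found in 394 cells at E6.75, in 6 libraries, and in 193 at E7.5, in 10 libraries. At E6.75 2.72% of 7987 rows were called (0.426% higher, 2.29% lower), and of the members Atp5l, subunit g of the ATP synthase: 176 to 220 CPM with Sox2 (median 201) and 215 to 305 CPM without (median 264), lower with Sox2 in 6 of 6 libraries, at -0.39 ± 0.10 (log2, SE; adjusted p by edgeR 0.0312). A further 20 of the 83 nuclear members had an unadjusted p under 0.05, and the median was -0.11. The nuclear share was 1.56% to 1.7% with Sox2 and 1.67% to 1.9% without, higher with Sox2 in 1 of 6 libraries. The cells differed in depth, with median transcript numbers of 49468 with and 12745 without Sox2; among cells of at least 10000 transcripts 0 members were called and Atp5l had -0.27 (adjusted p = 0.284). The call of Atp5l was lost without library 1_10, 2_12, 2_13 or 2_9 (adjusted p from 0.0573 to 0.144), and over single libraries left out the count of called members ran from 0 to 5. All 8 visceral endoderm markers fell in these cells.

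At E7.5 0 of the 96 tested members were called by Sox2, where 10.2% of all rows were (5.35% higher, 4.83% lower). Of the members 10 had an unadjusted p under 0.05, and DESeq2 called 0. The nuclear share was 1.75% to 2.03% with Sox2 and 1.77% to 2.06% without, higher with Sox2 in 3 of 10 libraries. In the same cells 10 of 21 glycolysis genes rose and 0 fell, among them Pdk1 (0.82), phosphofructokinase Pfkm (0.73) and Ldhb (0.58).

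**Figure D5:**
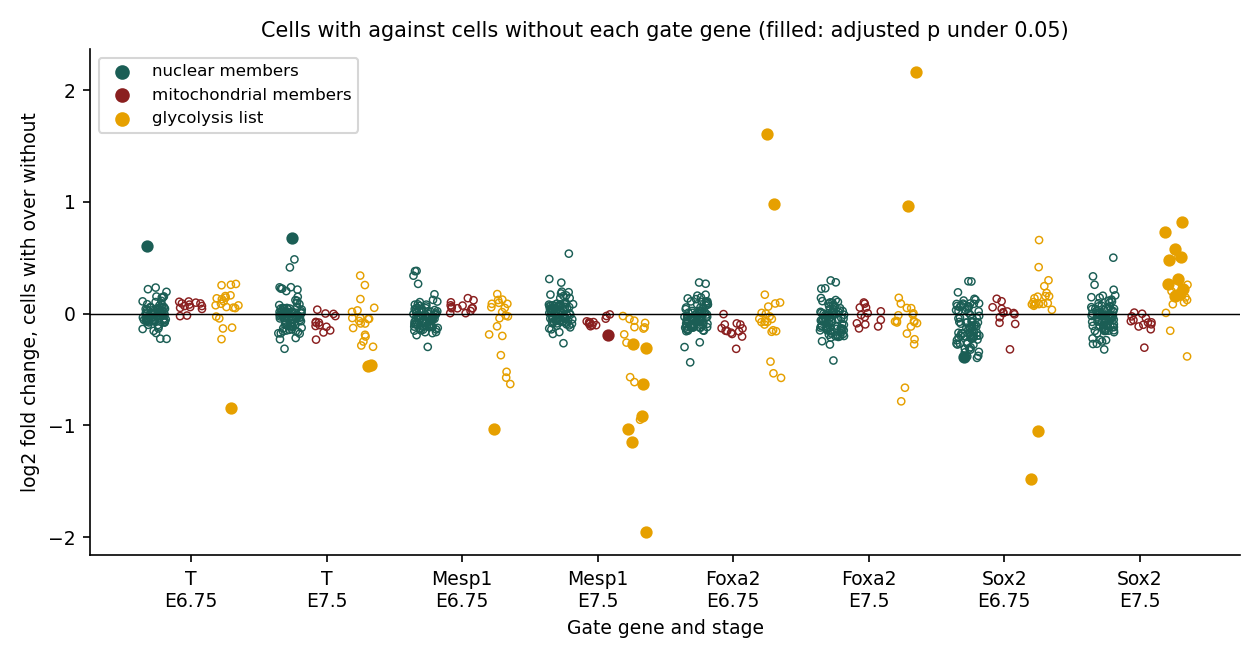
log2 fold change of cells with over cells without each gene, per stage, for nuclear members, mitochondrial members and the glycolysis list; filled points passed an adjusted p of 0.05. Member points lie within -0.44 and 0.68 and 4 of them are filled. The glycolysis list reaches -1.96 for Slc2a3 with Mesp1 and 2.16 for Slc16a1 with Foxa2, both transporters.

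The intervals bound the differences that were not called. At E7.5 the 95% interval of the log2 fold change lay within a 1.5-fold change in either direction for 79 of the 83 nuclear members for T, 80 for Mesp1, 77 for Foxa2 and 78 for Sox2, and for 12, 13, 12 and 12 of the mitochondrial ones. At E6.75 it did for 80, 76, 80 and 72 nuclear and for all 13 mitochondrial members. Differences under 1.5-fold are within these bounds.

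By edgeR, 0 members were called for a change between the stages in the difference by T, Mesp1, Foxa2 or Sox2, where 0.506%, 0.34%, 1.33% and 2.19% of all rows were. Of these rows the shares with a higher value at E7.5 were 0.289%, 0.0971%, 0.585% and 1.75%, and those with a lower one 0.217%, 0.243%, 0.745% and 0.438%. DESeq2 called 0 members as well. At an unadjusted p under 0.05, 3, 0, 1 and 8 nuclear and 2, 1, 1 and 0 mitochondrial members were counted.

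Over single cells, the quartiles of the nuclear member share were 1.51%, 1.67% and 1.82% in E6.75 cells and 1.73%, 1.89% and 2.11% in E7.5 cells. The quartiles of the mitochondrial members were 6.01, 9.85 and 13.7 and 7, 8.61 and 10.8 per 100 nuclear transcripts. Detection was counted over the nuclear subunit rows, without the assembly factors and the mitochondrial members. Thinned to 2000 transcripts, the median cell showed 22 of these rows at E6.75 and 26 at E7.5, and unthinned 73 and 74. Within a library, Spearman's rho over cells between the nuclear share and the mitochondrial level had a median of -0.04 over the 6 E6.75 libraries (-0.15 to 0.29, 85 to 96 cells each) and 0.12 over the 11 E7.5 libraries (-0.36 to 0.52, 15 to 71 cells). The 2 quantities share the nuclear total as denominator. The nuclear share went with depth at a median rho of -0.12 and -0.47.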

How the data were processed

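The deposited values are expected counts: per the labels' protocols transcripts were counted with unique molecular identifiers, and every nonzero value in the deposited files equals 4096 times the negative natural log of (1 - k/4096), for a whole number k. bcl2fastq 2.17.1.14 and BWA 0.6.2-r126 are named in the submitters' processing notes; the genome build, annotation, counting program and use of strand are not given in the sources used here. Of the barcode columns of a library, 96 were used, and cells with at least 2000 nuclear transcripts were kept.

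Counts were summed over kept cells per library, or per library and gate, then rounded. Sums were tested with edgeR 4.0.16 (quasi-likelihood, TMM factors and totals from nuclear genes, filterByExpr, Benjamini-Hochberg, threshold 0.05; R 4.3.3, limma 3.58.1), and DESeq2 1.42.0 was an alternative. Gates needed at least 3 cells on each side, and the library was a block. The code was tested on simulated data. Depth was 518343 to 5493791 transcripts per library. Promoter motifs were counted with Python 3.11.15; the NRF1 and YY1 motifs were searched as cores of 9 letters. A cell counted as visceral endoderm or extraembryonic ectoderm by at least 3 markers.

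Members and lists were chosen with earlier results of these data known. Values are given for up to 8 called nuclear members per direction, the highest member of each complex, all mitochondrial members, tissue-restricted isoforms with their partners, and up to 3 called genes of each other list; further members named were chosen after their values were seen. Alternatives were other scalings, filters, depths and cell or library sets, leaving out each library, and fits without the block.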

Additional observations from a re-analysis of the deposited data

Results flagged for a closer look

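In 61 groups of 4 to 10 library values checked for a value far from the others, 6 held one; chance alone gives about 1 in 20 such groups. The groups share libraries and are not independent. Groups of all 11 E7.5 libraries exceeded that size and were not checked, so member levels were checked at E6.75 alone. In E6.75 libraries, the Ndufs1 level of 187 CPM in library 1_10 and the Ndufab1 level of 403 CPM in library 2_12 were the highest, with gaps to the next library of 0.729 and 0.629 of the range against a critical value of 0.625. The mt-Co3 level of 2713 CPM in library 2_12 was the lowest of its stage, with a gap of 0.844. In E6.75 cells with Foxa2, library 1_10 had the highest mitochondrial level, 14 per 100 nuclear transcripts (13.96, gap 0.636). In E6.75 cells without Sox2, library 2_9 had the highest nuclear share, 1.90% (gap 0.8). In E7.5 cells without Sox2, library 10 had the highest mitochondrial level, 13.8 per 100 nuclear transcripts, with a gap of 0.468 against a critical value of 0.466 for 10 libraries.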

How the results depend on the processing

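Against 46 members called between the stages, 29 were called (27 shared) with the E6.75 prefix 2 libraries alone and 20 (18 shared) with cells thinned to 2000 transcripts, where fewer members were tested. The 35 nuclear rises became 23 (21 shared) and 16 (14 shared), and the 5 nuclear falls 2 and 0, or 3 without E7.5 libraries 10 to 12, a setting chosen after seeing the data. Uqcrfs1 was at 0.22 when thinned, against -0.24; the cause was not tested. The E7.5 nuclear share was 1.98% when thinned. Leaving out 1 library in turn gave 34 to 52 calls, 25 to 42 nuclear rises and 3 to 5 nuclear falls (3 without library 1_10 or 2_12).

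For the gates, leaving out 1 library gave 0 to 1 calls for T at E6.75, 1 to 3 for T at E7.5 (3 without E7.5 library 9), 1 to 7 for Mesp1 at E7.5 (7 without library 9), 0 to 4 for Foxa2 at E6.75 (4 without 2_13), 0 to 5 for Sox2 at E6.75 (5 without E7.5 library 6), 0 to 2 for Sox2 at E7.5 (2 without library 8) and 0 to 1 for the Sox2 change between stages (1 without 1_10). DESeq2 gave 2 calls for T at E7.5, 2 for Mesp1 at E7.5 and 2 for Sox2 at E6.75, where RLE size factors gave 3. With no filter on low counts there were 2 for T at E7.5, 13 and 8 for Foxa2 at E6.75 and E7.5, and 2 for the Foxa2 change. Detection and sums at 2000 transcripts gave 0 for T at either stage, 0 for Mesp1 at E7.5 and 0 for Sox2 at E6.75, with at most 48 members tested. Only 2 of the 4 members called in the main gate fits were tested there, and both lost their call. For the others this setting could not have given a call. Cells of at least 10000 transcripts gave 0 for Sox2 at E6.75, a setting added after seeing the data. Without visceral endoderm and extraembryonic ectoderm cells there were 2 for Mesp1 at E7.5 and 0 for Sox2 at E6.75.

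Pairing in the gates is by library, since cells with and without a gene came from the same library. With no replicate block, T at E6.75, Mesp1 at E7.5 and Sox2 at E6.75 had 0 calls and T at E7.5 had 1. No paired analysis was possible between the stages because their libraries share no source. Expected counts cover counting error only, and the shallowest library holds 518343 transcripts.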
